A study of Mus musculus with 12 samples.

Results

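Accsl, Lrrc31, Mymx and Jam2, 4 genes of unrelated families, were clearly transcribed in naive mouse embryonic stem cells (ESCs) and had almost no reads in the epiblast-like cells (EpiLCs) made from them. They are 4 of the 51467 genes counted, picked from the counts because their reads were near 0 in EpiLC libraries and clear in ESC libraries, and because none of them is a classic pluripotency factor. Their ESC to EpiLC difference is therefore what selected them, and it is described here without a test. The choice used no numeric threshold.

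ESCs had been grown in Knockout DMEM with 15% fetal bovine serum, LIF and the 2i inhibitors PD0325901 and CHIR99021, which hold them in the naive state, and EpiLCs were taken about 56 h after LIF and 2i were withdrawn. All cells, those of the total libraries included, received 500 µM 4-thiouridine (4sU) for 30 min, a uridine analogue that marks RNA made during the pulse. Captured 4sU RNA (nascent RNA) and ribosome-depleted total RNA were sequenced from each cell type, giving 4 groups of 3 libraries: ESC total, EpiLC total, ESC 4sU and EpiLC 4sU. The depth was 9300845 to 21975684 counted reads in total libraries but only 3097693 to 5385644 in 4sU libraries, so a single read weighs more in the nascent data. The authors call the replicates biological. Neither they nor the labels say that the 3 libraries of a group came from separate cultures, so that p-values measure only the spread between these samples. Spike-in entries had 0 reads in every library, and all levels are relative to the RNA of the same library. In bulk RNA, fewer cells expressing a gene and less RNA per cell cannot be told apart.

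When naive cells leave LIF and 2i, the transcription factor circuit of the ground state shuts down and genes that depend on it lose expression, while genes of the formative epiblast are switched on. Many genes read out by that circuit encode proteins with known jobs in quite other tissues, and their transcripts in stem cells need not reflect those jobs. The labelled cell types had the marker pattern of their names: the 10 naive markers examined were all lower in EpiLCs in both assays (median log2 mRNA change -6.15), and 7 of 8 primed markers were higher (median 3.20).

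The 4 proteins have little in common. Jam2 encodes junctional adhesion molecule B, an immunoglobulin-superfamily receptor of cell junctions best known from endothelium, where it pairs with the product of Jam3. Mymx encodes myomixer, a membrane microprotein that acts with Mymk (myomaker) to fuse myoblasts into muscle fibres. Accsl encodes a relative of the plant enzymes that make the precursor of ethylene and belongs to the fold of pyridoxal phosphate (PLP)-dependent aminotransferases. Lrrc31 encodes a leucine-rich repeat protein whose molecular role is little known. The genes lie on 4 chromosomes and share no locus. In mm10, Accsl (ENSMUSG00000075023.11) spans chr2:93855361-93869157 on the minus strand and has 15 exons in its consensus coding transcript. Lrrc31 (ENSMUSG00000074653.10) spans chr3:30682680-30699843, also on the minus strand. Mymx (ENSMUSG00000079471.4) is the most compact, with 2 exons within chr17:45600971-45602102 on the minus strand. Jam2 (ENSMUSG00000053062.15) is the longest, with 10 exons over chr16:84774123-84825928 on the plus strand.

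Sequence just upstream of an annotated start that matched the counted gene was found for 2 of the 4 genes, Accsl and Lrrc31, in the RefSeq promoter table (GRCm38.p6), and is shown because both genes went from clear to near-0 nascent RNA. The stretches are chr2:93869158-93869407 for Accsl and chr3:30699844-30700093 for Lrrc31, both read on the minus strand from 5′ to 3′ up to the base before the start. Capitals mark every match to the E-box CANNTG and to the CCAAT box.
Accsl: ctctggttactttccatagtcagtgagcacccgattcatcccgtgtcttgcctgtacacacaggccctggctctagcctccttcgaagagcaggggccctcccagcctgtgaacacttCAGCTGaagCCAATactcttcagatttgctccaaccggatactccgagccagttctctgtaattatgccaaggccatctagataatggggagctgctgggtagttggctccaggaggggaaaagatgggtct
Lrrc31: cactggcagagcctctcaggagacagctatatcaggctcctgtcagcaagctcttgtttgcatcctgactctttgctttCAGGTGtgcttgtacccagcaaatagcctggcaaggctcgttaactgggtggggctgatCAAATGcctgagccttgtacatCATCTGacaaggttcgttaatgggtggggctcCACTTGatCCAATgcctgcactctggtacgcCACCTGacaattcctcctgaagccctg
The Lrrc31 window held 5 E-boxes, at positions -171, -112, -90, -58 and -27 from the start, and a CCAAT box at -50. Of the 32851 mouse windows of this length, 66.2% held at least 1 E-box and 1.15% held 5 or more. The Accsl window held 1 E-box at -132 and 1 CCAAT box at -123; a CCAAT box was found in 33.8% of windows. Neither window held TATAAA (12.4% of windows), GGGCGG (32.7%), the octamer ATGCAAAT (1.6%), TCAAGGTCA, the extended site of oestrogen-related receptors (0.387%), the STAT site TTCNNNGAA (7.02%) or the SOX core AACAATG (3.29%). Both strands were searched, E-boxes and STAT sites read the same on either strand, and these are letter matches only. The Accsl window shown had 5 CpG dinucleotides and 53.6% GC, and the Lrrc31 window 3 and 52.8%. The medians over all windows were 6 and 52.4%, so that neither window was rich in CpG. RefSeq also listed Accsl starts at 93930482 and 93864816, which did not match the counted gene, and their windows are not shown. The window at 93930482 held TATAAA at -191, 2 E-boxes and 0 CpG. The window at 93864816 held no TATAAA, 1 E-box and 1 CpG. Which start ESCs use was not tested.

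Jam2, the adhesion receptor, was the best covered of the 4 genes. Its CPM (read count scaled to the library total) in ESC total RNA were 240.1, 251.8 and 266.9 in replicates 1, 2 and 3, and in EpiLC total RNA 1.08, 1.19 and 0.571. In ESC 4sU RNA they were 574.8, 448.2 and 445.1, and in EpiLC 4sU RNA 2.25, 0.921 and 1.94. Every ESC library was far above every EpiLC library in both assays, and Jam2 was the only one of the 4 genes with reads in all 6 EpiLC libraries (4 to 13 reads each). Summed over libraries, Jam2 kept 0.376% of its ESC level in EpiLC total RNA (95% counting interval 0.252 to 0.541%) and 0.339% in nascent RNA (0.204 to 0.53%). The intervals, exact Clopper-Pearson as for the other genes, cover counting error only, since reads were not collapsed to molecules.

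Mymx, the muscle fusion microprotein, was read at 70.8, 79 and 42.9 CPM in the ESC total libraries. The EpiLC total libraries had 4, 6 and 3 reads, or 0.43, 0.55 and 0.285 CPM. ESC 4sU libraries gave 57.2, 72.4 and 40.9 CPM, and EpiLC 4sU libraries had 0 reads in all 3. The groups did not overlap, and replicate 3 was the lowest ESC library in both assays. The total level left in EpiLCs was 0.619% (0.329 to 1.06%), the highest of the 4 genes in total RNA. Its nascent level was at least 225.4-fold lower than in ESCs, taking 3 reads over the group as the limit that a count of 0 allows (0.444% of ESC). Because the limit scales with EpiLC depth, it was 0.682% without EpiLC 4sU replicate 1 and 0.715% without EpiLC 4sU replicate 2.

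Accsl, the aminotransferase-fold gene, had 776, 985 and 294 reads in ESC total RNA (40.2, 44.8 and 26.7 CPM). It had 0 reads in all 3 EpiLC total libraries. In 4sU RNA it was at 22.8, 29.2 and 18.8 CPM in ESCs, against exactly 1 read in each EpiLC library (0.25, 0.23 and 0.323 CPM). As for Mymx, ESC replicate 3 was the lowest ESC library in both assays yet far above every EpiLC library. Total Accsl RNA was at least 402.4-fold lower in EpiLCs, a limit of 0.249% of ESC. The limit was 0.385% without EpiLC total replicate 2 and 0.378% without EpiLC total replicate 3. The 3 nascent reads left 1.08% of the ESC level, 92.7-fold lower with a counting interval of 31.5 to 452-fold.

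Lrrc31, the leucine-rich repeat gene, varied little between ESC replicates. ESC total libraries were at 35.1, 33.9 and 31.2 CPM, and ESC 4sU libraries at 51.3, 44.4 and 42. In EpiLCs the gene had a single read in all 6 libraries, in 4sU replicate 2 (0.23 CPM). All ESC libraries were again above all EpiLC libraries. Total Lrrc31 RNA was at least 345.8-fold lower, a limit of 0.289% of ESC, or 0.449% without EpiLC total replicate 2 and 0.44% without EpiLC total replicate 3. The 1 nascent read corresponds to 0.19% of the ESC level, with a counting interval of 0.00479 to 1.06%, and to 0.291% without EpiLC 4sU replicate 1.

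**Figure D1:**
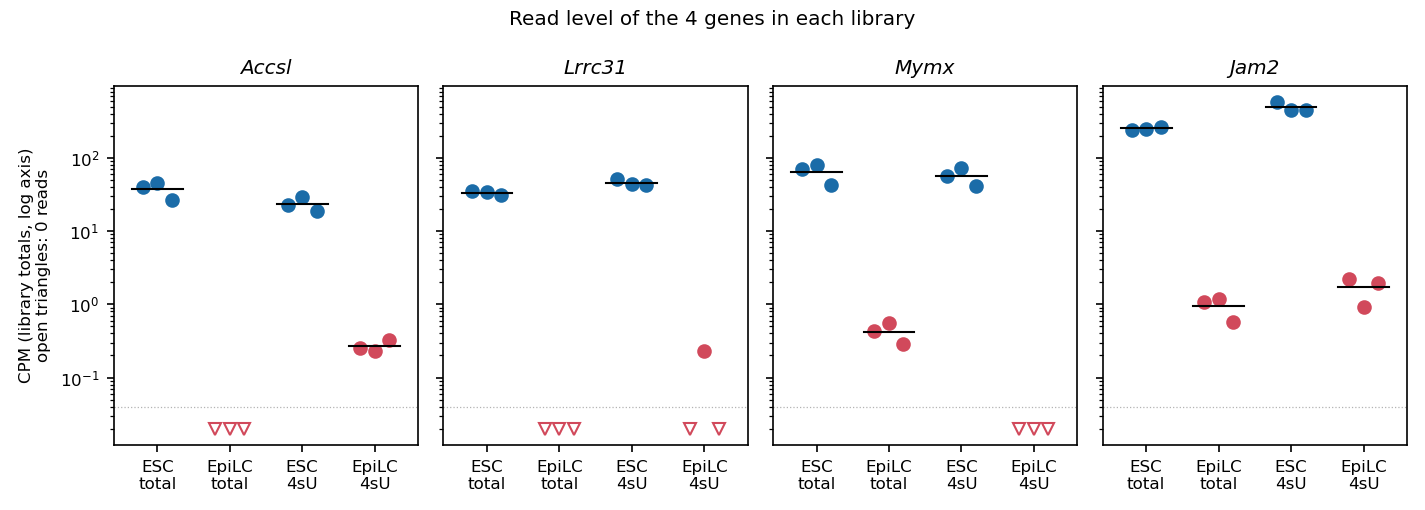
CPM (library totals, log axis) of each gene in each of the 12 libraries. Filled points are libraries with reads, open triangles below the dotted line are libraries with 0 reads (not to scale), and bars are means of groups in which every library had reads. ESC libraries lie from 18.8 CPM (Accsl, 4sU) to 574.8 CPM (Jam2, 4sU), while no EpiLC library exceeds 2.25 CPM.

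**Figure D2:**
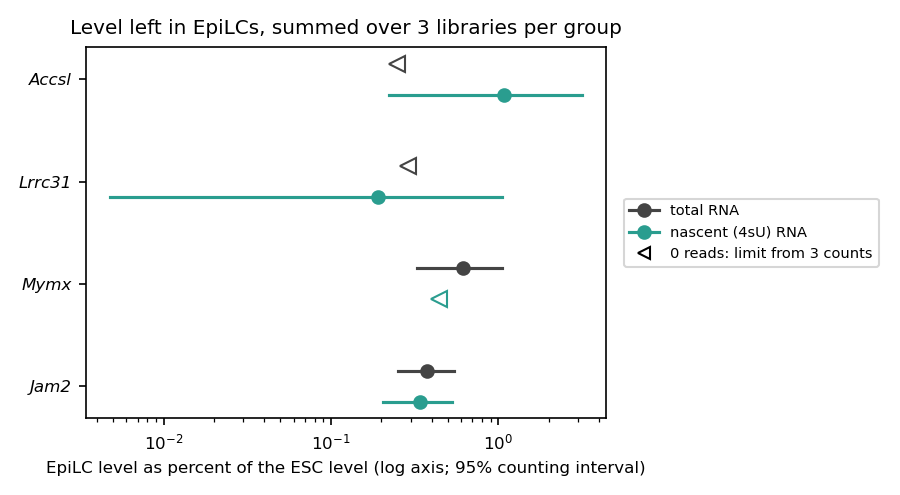
Level left in EpiLCs as a percent of the ESC level (log axis), from reads summed over 3 libraries per group, in total RNA (grey) and nascent RNA (green). Points carry exact 95% counting intervals, and arrowheads are the limit for groups with 0 reads; the values run from 0.19% (Lrrc31, nascent) to 1.08% (Accsl, nascent).

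All 4 genes passed the expression filter of at least 3 CPM in at least 3 libraries, through their ESC libraries alone, and all 4 had a limma-voom call (Benjamini-Hochberg adjusted p under 0.05 and absolute log2 change over 1) for lower mRNA and for lower nascent RNA. Of the 14731 genes kept, 11.2% were called lower in mRNA and 13.5% in nascent RNA, and since these contrasts selected the 4 genes nothing is read from their count. The fitted log2 mRNA changes were -9.65 ± 0.78 (SE, 3 libraries per group) for Accsl, -9.51 ± 0.44 for Lrrc31, -8.14 ± 0.35 for Jam2 and -7.19 ± 0.82 for Mymx. The nascent changes were -8.77 ± 1.04 for Mymx, -8.19 ± 0.40 for Jam2, -7.94 ± 0.44 for Lrrc31 and -5.93 ± 0.80 for Accsl. Where a group had 0 reads, the fitted value rests on the small count that voom adds before the logarithm and is not a bound. The mRNA stability change, which is the mRNA change minus the nascent change, was called for none of the 4 in this fit, which has no block, and for 1.54% of all genes; it too is made of the contrasts that selected the genes and is given as a description. Jam2, with the most EpiLC reads, was at 0.05 ± 0.53 and Mymx at 1.57 ± 1.33. Lrrc31 was at -1.57 ± 0.63 and Accsl at -3.72 ± 1.12 (limma-voom adjusted p = 0.0705), both fitted against 0 reads in EpiLC total RNA. For Accsl the call depended on the setting. It passed in limma-voom with the replicate number as a block (-3.74, adjusted p = 0.00293). It also passed with same-numbered libraries of a cell type, taken as a culture, as a block (-3.72, limma-voom adjusted p = 0.0249). With no expression filter it passed as well (-3.86, limma-voom adjusted p = 0.0349). The same held without ESC total replicate 3 (-3.93, limma-voom adjusted p = 0.00242) and without both ESC replicate 3 libraries (-3.79, adjusted p = 0.000436). It passed in DESeq2 (-4.67, adjusted p = 0.0258) but not in edgeR (-5.03, adjusted p = 0.111). In all, 14 of 20 alternatives left it uncalled. Among these were median-of-ratios scaling (limma-voom adjusted p = 0.0661) and library totals alone (limma-voom adjusted p = 0.0625). Leaving out any single EpiLC library also left it uncalled (limma-voom adjusted p 0.122 to 0.156). These values rest on 3 nascent reads and 0 total reads of Accsl in EpiLCs. So few EpiLC reads give little precision for any of the 4 genes, and the values that were not called do not show that stability stayed the same.

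How uncommon such low levels were can be read from the 11159 genes kept that had a mean of at least 3 CPM in ESCs in both assays. The median gene among them was at 98.3% of its ESC level in EpiLC total RNA and 91.9% in nascent RNA. At or under the highest value of the 4 genes were 26 genes in total RNA and 35 in nascent RNA. Both were met by 20 genes, of which 16 were others and 11 of those were protein-coding. The 4 genes lie within these cuts by construction. The nascent cut is the Accsl value of 1.08%, which rests on 3 reads (counting interval 0.221 to 3.18%), so these counts are loose. The gene next above in total RNA was Nr0b1, an orphan nuclear receptor of the naive state, at 0.667%, and in nascent RNA H2-M5 at 1.1%. Among the 16 others, those with the highest ESC total level per kb of exon were the processed pseudogene 2210409E12Rik (158.4 RPKM, reads per kb of exon scaled to library totals as for CPM), Tcl1 (59.5 RPKM), which encodes a co-activator of the kinase AKT, 2410137M14Rik (25.2), Phf11d (24.7), the pseudogene H2-M6-ps (19.6) and the antisense transcript Gm13580 (18.3). Tcl1 kept 0.549% of its total and 0.693% of its nascent level. Prdm14, a naive regulator, was among the 16 (0.088% total, 0.658% nascent), the only one of the naive markers examined. Other naive markers kept more, such as Esrrb (1.64% total, 1.76% nascent) and Zfp42 (6.4% total, 4.29% nascent).

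Measured per kb of exon, which makes levels comparable between genes, the 4 genes were not minor transcripts in ESCs. In ESC total RNA, Mymx was at 62.5 ± 18.4 RPKM (SD, n = 3; above 91.2% of kept genes), Jam2 at 43.1 ± 2.29 (86.6%), Accsl at 16.7 ± 4.24 (69.1%) and Lrrc31 at 10.2 ± 0.602 (57.6%). The replicates of Mymx (41.8 to 76.9 RPKM) overlapped those of Jam2 (40.9 to 45.5), so their order is not settled, whereas the other neighbours in this order did not overlap. In nascent RNA the order was Jam2 (83.4 ± 12.6 RPKM), Mymx (55.3 ± 15.4), Lrrc31 (14 ± 1.46) and Accsl (10.6 ± 2.34), and only Lrrc31 (12.8 to 15.6) and Accsl (8.47 to 13.1) overlapped. Accsl was thus above Lrrc31 in total RNA. Within each ESC 4sU library Lrrc31 was above Accsl (15.6 against 10.2, 13.5 against 13.1 and 12.8 against 8.47 RPKM). The replicate 2 values lie close, so their order in nascent RNA is not firm. The kb are those of all annotated exons together, 5870 bases for Jam2 and 1027 for Mymx, which can differ from the transcript made in ESCs.

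Relative mRNA stability within ESCs, the log2 ratio of total to nascent level, is a comparison that the choice of genes did not use. None of the 4 genes passed the call of an absolute log2 over 1 and adjusted p under 0.05, beside 50.5% of all genes tested (in either direction). With 4 genes nothing is read from that share. In the limma-voom fit the 4 genes lay from above 32.3% of genes (Jam2) to above 72.4% (Accsl), though Accsl was above 78% in replicate 1. The 4 genes differed among themselves. Taking a 4sU and a total library of one number as a culture, Accsl was at 1.09, 0.82 and 0.71 in cultures 1, 2 and 3, and Mymx at 0.58, 0.32 and 0.28. Lrrc31 was at -0.27, -0.19 and -0.22, and Jam2 at -0.98, -0.63 and -0.53. Every culture gave the order Accsl, Mymx, Lrrc31, Jam2, with no overlap between neighbours, so Accsl had the most total RNA per nascent RNA and the Jam2 transcript the least. In the limma-voom fit Accsl was at 0.86 ± 0.21 (SE; adjusted p = 0.00155; above 72.4% of genes) and Jam2 at -0.72 ± 0.09 (adjusted p = 5.87e-06; above 32.3%), beside a median of 0.03 over all genes. Lrrc31 was at -0.23 ± 0.10 (limma-voom adjusted p = 0.0473) and Mymx at 0.38 ± 0.22 (adjusted p = 0.124), neither far from that median. With the replicate number as a block the limma-voom adjusted p was 0.00275 for Mymx (0.40) and 0.0615 for Lrrc31 (-0.23), with no change of call. With same-numbered libraries of a cell type, taken as a culture, as a block, the limma-voom adjusted p was 0.0607 for Mymx (0.38). For Lrrc31 it was 0.026 (-0.23), again with no change of call. Which of the 2 genes had the lower adjusted p thus depended on the block. Accsl lay near the fold threshold: it passed without ESC 4sU replicate 2 (1.00) and without ESC total replicate 3 (1.08), and with no expression filter (1.11), a setting under which the median of the genes kept also moved to 0.25.

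**Figure D3:**
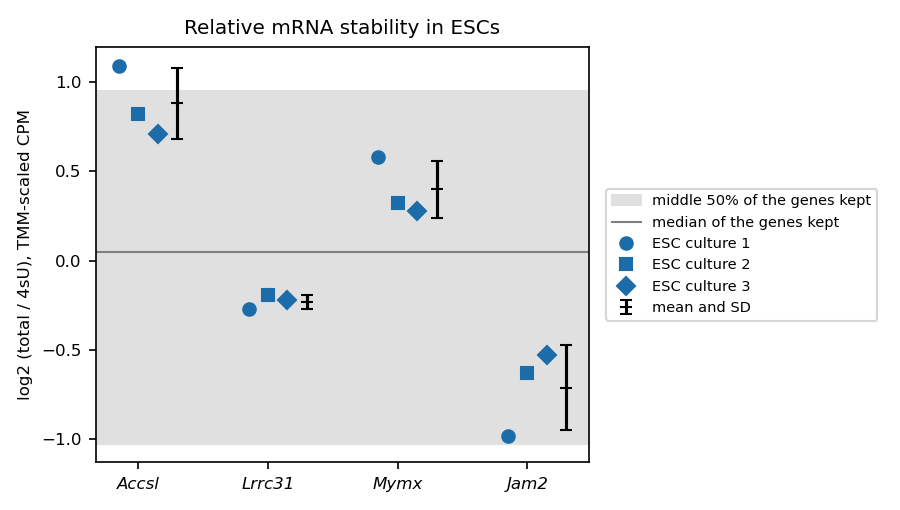
Relative mRNA stability in ESCs, as log2 of total over 4sU CPM (TMM-scaled), with mean and SD (bars, n = 3). Symbols are 3 pairs of same-numbered total and 4sU libraries, taken as cultures although the labels do not state cultures. The grey band is the middle 50% and the line the median of the 14731 genes kept, averaged over cultures; Accsl lies highest (0.71 to 1.09) and Jam2 lowest (-0.98 to -0.53).

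ESC replicate 3 stood apart from the other ESC replicates (Spearman's rho over genes 0.985 with either in total RNA, against 0.998 between replicates 1 and 2), and the 4 genes did not follow it alike. In total RNA, replicate 3 differed from the mean of replicates 1 and 2 by -0.83 on the log2 scale for Mymx, -0.70 for Accsl, -0.18 for Lrrc31 and 0.08 for Jam2. In 4sU RNA the values were -0.66, -0.45, -0.19 and -0.20. The median of the 10 naive markers differed by -0.06 in total and -0.36 in 4sU RNA. Mymx and Accsl were the genes whose replicate 3 was clearly the lowest in both assays, and Lrrc31 was lowest there by less. Replicate 3 was also the shallowest ESC library in both assays. It had 11024715 reads in total RNA (19312495 and 21975684 in replicates 1 and 2) and 3450940 in 4sU RNA (4524788 and 5385644). The part of depth in these differences was not tested. Without both ESC replicate 3 libraries the ESC stability was 0.92 for Accsl, 0.42 for Mymx, -0.26 for Lrrc31 and -0.83 for Jam2.

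The genes nearest on the chromosome were then examined, since the selection did not use them. The 3 nearest genes kept on either side of each gene gave 24 neighbours. Of these, 5 were called lower and 3 higher in mRNA (20.8% and 12.5%), beside 11.2% lower and 16.3% higher among all genes. In nascent RNA 5 were lower and 2 higher (20.8% and 8.33%), beside 13.5% and 11.9%. The median neighbour changed by -0.52 in mRNA and -0.42 in nascent RNA, against 0.02 and -0.09 over all genes. Of the called neighbours, 3 of the 5 lower in each assay were at the Lrrc31 locus.

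Beside Lrrc31, the next genes on one side fell with it. Lrriq4, a leucine-rich repeat and IQ motif gene on the opposite strand 10249 bases away, went from 18 ± 3.04 to 0.404 ± 0.0839 CPM in total RNA (mean and SD of TMM-scaled CPM, n = 3), a log2 change of -5.28 ± 0.49 (SE; limma-voom adjusted p = 3.14e-07) and -4.87 ± 0.56 in nascent RNA. Lrrc34, 34811 bases away on the same strand and known as a nucleolar protein of pluripotent cells, went from 111.4 ± 19.9 to 1.26 ± 0.28 CPM, with changes of -6.44 ± 0.51 (adjusted p = 5.89e-08) and -5.97 ± 0.82. No ESC library of either gene overlapped an EpiLC library: Lrriq4 had at least 15.1 CPM in ESC total libraries and at most 0.497 in EpiLC total libraries, and Lrrc34 at least 88.5 and at most 1.49. The next gene, Mynn, a zinc finger gene, was not called (-0.60 ± 0.08), which ended the run on that side. On the other side the first kept neighbours were not called, among them Sec62, a gene of the protein translocation machinery (0.16 ± 0.07). Gpr160, an orphan receptor gene 156107 bases away, fell (-2.29 ± 0.17 in mRNA and -2.56 ± 0.25 in nascent RNA). Samd7, which lies between Lrrc31 and these kept genes, failed the expression filter and was not tested. It had 31 reads in ESC total RNA and 14 in ESC 4sU RNA, against 0 in EpiLCs in both assays. Lrriq4 and Lrrc34 overlap on opposite strands, and the antisense gene Gm15462 lies within Lrrc31 with 13 reads in ESC total RNA in all; reads were counted by strand.

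At Mymx, the adjacent gene Slc29a1, which encodes the nucleoside transporter ENT1, lies 1368 bases away on the same strand and fell from 204.6 ± 38.9 to 48.1 ± 5.22 CPM in total RNA (log2 -2.08 ± 0.13, limma-voom adjusted p = 7.16e-09) and by a like amount in nascent RNA (-2.04 ± 0.28). Hsp90ab1, a chaperone gene 27700 bases away, was not called (-0.13 ± 0.10), and on the other side the nearest kept gene, Tmem63b, rose (1.09 ± 0.08). Capn11, which lies between Mymx and Tmem63b, failed the expression filter and was not tested. It had 49 reads in ESC and 5 in EpiLC total RNA, and 15 and 10 in 4sU RNA. Mrpl14 was lower in nascent RNA only by the call (-1.06 ± 0.39, against -0.96 ± 0.14 in mRNA), and the difference between the assays was not tested for it.

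Accsl and Jam2 fell among neighbours that mostly were not called. Accs, the paralog of Accsl and its nearest neighbour at 5420 bases on the same strand, was at 10.2 ± 2.7 CPM in ESC and 5.8 ± 0.559 CPM in EpiLC total RNA (log2 -0.73 ± 0.19, limma-voom adjusted p = 0.00328, under the fold threshold). Ext2, a heparan sulphate polymerase gene, was at -0.92 ± 0.11, and the one called neighbour of Accsl, the long non-coding Mir670hg, was higher in EpiLCs, with 0 reads in ESC total RNA. Around Jam2, Atp5j (1938 bases away, -0.42 ± 0.09) and Gabpa (8997 bases, -0.78 ± 0.07), an ATP synthase subunit gene and an ETS factor gene, were not called, and App, the amyloid precursor gene, rose (2.80 ± 0.16, limma-voom adjusted p = 2.1e-09). The 2 further neighbours on the other side of Mrpl39 lie across a long stretch without kept genes, the nearer, D16Ertd472e, 6197466 bases from Jam2; D16Ertd472e was lower in mRNA (-1.20 ± 0.12).

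**Figure D4:**
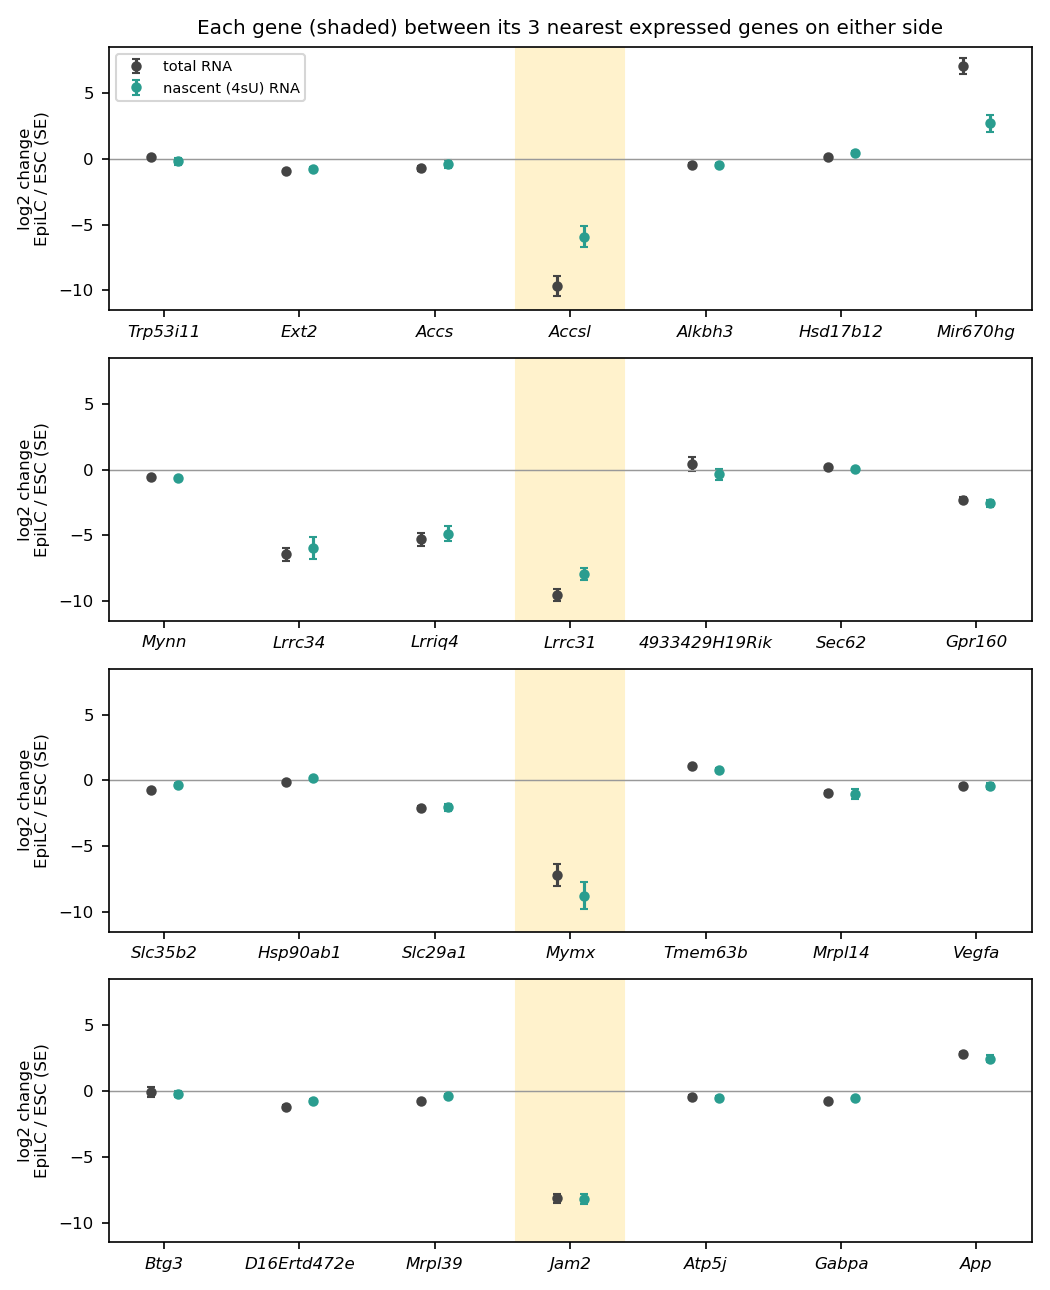
Log2 change from ESC to EpiLC (limma-voom, with SE) in total RNA (grey) and nascent RNA (green) for each gene (shaded) and its 3 nearest kept genes on either side, in chromosome order and not to scale in distance. Next to Lrrc31, Lrriq4 and Lrrc34 lie at -5.28 and -6.44 in total RNA, whereas no neighbour of the other 3 genes is below -2.08.

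Relatives and partners of the 4 proteins are described by their counts, to be read against the 11.2% lower and 16.3% higher in mRNA among all genes. Of 8 genes encoding relatives of the JAM family, 5 were kept, with 1 lower and 1 higher in mRNA and a median of 0.33 (0.02 over all genes). The lower one was Jam3, the usual partner of JAM-B, which went from 69.6 ± 6.48 to 27.9 ± 0.755 CPM (log2 -1.32 ± 0.10, limma-voom adjusted p = 4.87e-08) and was also called lower in nascent RNA, and the higher one Igsf11 (4.19), a homophilic adhesion gene. F11r, which encodes JAM-A, was at 0.46 ± 0.13. Of the 13 genes for JAM scaffold and polarity partners, none was lower and 2 rose, the cell polarity gene Pard6b (1.04) and the multi-PDZ scaffold gene Mpdz (3.18), with a median of 0.39; the share that rose is near that of all genes. Endothelial markers were considered because Jam2 marks endothelium: 4 of 10 were kept, of which Vwf (-6.70), Tek (-1.79) and Eng (-1.11) were lower and Flt1 (4.21) higher; 4 genes are too few to set their shares against the 11.2% and 16.3% of all genes. The summed level of the list was 13.5 to 17.1 RPKM in ESC total libraries and 7.71 to 8.99 in EpiLC total libraries. The defining gene Cdh5 had 0 reads in ESC total RNA and Emcn 0 in all 12 libraries. The other markers not kept were low but present and were not tested. Their mean TMM-scaled CPM in ESC and EpiLC total RNA were 1.86 and 0.309 (Kdr), 1.64 and 0.758 (Cldn5), 1.28 and 0.172 (Robo4), and 1.57 and 1.91 (Tie1).

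Muscle genes as a list did not fall with Mymx. Mymk, the fusion partner of myomixer, had 0 reads in all 12 libraries, as had Cav3. Myod1, the master regulator of myoblasts, had 0 reads in ESC total RNA, and Myog 5. Of the 19 muscle genes, 6 were kept, with 1 lower and 2 higher (11.2% and 16.3% among all genes) and a median log2 mRNA change of 0.13: the sarcomere gene Ttn fell (632 ± 251.5 to 75.6 ± 4.37 CPM, log2 -2.98) and Acta1 (4.54) and Actn2 (1.48), for muscle actin and actinin, rose. The summed level of the list was 17.3 to 22.1 RPKM in ESC total libraries and 21.2 to 22.8 in EpiLC total libraries, so that the groups overlapped.

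Among the 14 PLP-dependent aminotransferase genes, 12 were kept, with 2 lower and 1 higher in mRNA (11.2% and 16.3% among all genes) and a median of -0.53. The lower ones were Bcat1, for cytosolic branched-chain amino acid transaminase (1210 ± 75.8 to 339.9 ± 21.5 CPM, log2 -1.83), and Kyat3, a kynurenine aminotransferase gene (-2.02), and the higher one was Abat (1.19), for GABA transaminase. Of the 65 other genes named Lrrc with a number, 29 were kept, with 3 lower and 6 higher, shares near those of all genes, and a median of -0.14. The lower ones were Lrrc34, described above, Lrrc2 (-4.22) and Lrrc15 (-2.16), and the largest rise was Lrrc8c (2.99), a subunit of volume-regulated anion channels. In nascent RNA, the counts lower and higher were 1 and 1 for JAM relatives, 0 and 2 for JAM partners, 2 and 1 for endothelial markers, 1 and 2 for muscle genes, 2 and 0 for aminotransferases and 5 and 3 for Lrrc-numbered genes, beside 13.5% and 11.9% of all genes.

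Markers of other lineages moved in different directions, with few kept genes in each list to set against the 11.2% lower and 16.3% higher of all genes. Of primitive endoderm markers 6 of 9 were kept, with 2 lower, the laminin gene Lama1 (-3.57) and the endoderm factor gene Sox17 (-4.13), and 3 higher, among them the adaptor gene Dab2 (4.87) and the collagen gene Col4a1 (1.71). Of trophoblast markers 3 of 8 were kept, with Tfap2c lower (-3.35) and the keratins Krt18 (3.42) and Krt7 (2.15) higher. The list sum was 21.4 to 23.9 RPKM in ESC total libraries and 118.4 to 141.8 in EpiLC total libraries. Krt18 alone went from 17.5 ± 2.14 to 186 ± 17.6 CPM in total RNA, so the sum does not describe the list as a whole. Tpbpa had 0 reads throughout. Of fibroblast markers 4 of 10 were kept, with 3 higher (Dcn, Col1a2 and Twist1) and a sum of 3.33 to 4.05 RPKM in ESC and 12.9 to 14.3 in EpiLC total libraries. The sum of primitive endoderm markers was 20.6 to 27.7 and 33.7 to 35.3 RPKM. The part of such cells in the levels of the 4 genes was not tested.

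Over the 12 libraries, Pearson's r of log2(CPM + 0.5) between pairs of the 4 genes was 0.979 to 0.994, a description that mostly restates the gap between ESC and EpiLC libraries used to choose them. The genes whose pattern was most alike were Mtf2 (r = 0.995), Ccdc141 (0.995) and Hnf4a (0.994) for Accsl, and Lncenc1 (0.997), Lifr (0.996) and Gm14820 (0.996) for Lrrc31. For Mymx they were Oas2 (0.997), Platr7 (0.997) and Zfp42 (0.996), and for Jam2 they were Lifr (0.998), Gm13580 (0.996) and Esrrb (0.995). Zfp42 and Esrrb encode transcription factors of naive cells, and Lifr encodes the receptor subunit for LIF. These r values too mostly restate the gap between ESC and EpiLC libraries. Nothing is read from their order or from what the named genes encode. A like pattern did not mean a like depth of loss: Lifr kept 15.5% of its ESC level in EpiLC total RNA and Mtf2, a Polycomb-associated gene, 27.3%.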

How the data were processed

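The authors trimmed reads with cutadapt 1.14, aligned them to mm10 with STAR 2.5.3a, kept uniquely aligned reads, and counted them by strand over the exons of GENCODE M14 genes with featureCounts 1.5.3. The deposited values are raw counts per gene in 12 libraries, and no column of per-sample values was left unused. Unique alignment makes values of genes with close copies uncertain.

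The expression filter asked for 3 CPM or more in 3 or more libraries and left 14731 of 51467 genes. A limma-voom model with TMM scaling and 4 group means was fitted to all 12 libraries (limma 3.58.1, edgeR 4.0.16, R 4.3.3; Python 3.11.15), and p-values were adjusted by the Benjamini-Hochberg method over all kept genes. A call needed an adjusted p under 0.05 and an absolute log2 over 1. The script was tested on simulated data. Residual levels were summed EpiLC reads over library totals as a percent of the same in ESCs, with exact Clopper-Pearson 95% intervals. A count of 0 was given a limit of 3 counts over the group.

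The 4 genes and all lists were chosen with earlier results of these data known. Named beside the 4 genes are the 3 nearest kept genes on each side, up to 4 called genes of each list by size of change, the 6 genes as low in both assays with the highest ESC level per kb, and the 3 genes most alike by Pearson's r. List members beyond that (F11r, Mymk, Myod1, Myog, Cav3, Cdh5, Emcn, Kdr, Cldn5, Robo4, Tie1, Tpbpa), Nr0b1, H2-M5, Prdm14, Gm15462, Samd7 and Capn11 were named after their values were seen.

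Same-numbered ESC 4sU and ESC total libraries deviated together (r of deviations from group means 0.213, 0.368 and 0.462), which pairs them for the comparison within ESCs. EpiLC pairs (0.023 to 0.0916) and numbers across cell types (-0.128 to -0.00589) did not. Alternatives covered scaling, filter, edgeR, DESeq2 1.42.0, blocks and each library left out. Of the gene IDs, 99.6% were in GENCODE M21, which gave gene types and exons. Promoter windows came from RefSeq (GRCm38.p6; 250 upstream bases shown).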

Additional observations from a re-analysis of the deposited data

How the results depend on the processing

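Over all alternatives, 432 values kept their direction and side of the threshold or stayed close, 9 passed a threshold that they missed as reported, 6 moved and 8 changed sign. The 8 are the mRNA stability change of Jam2, which lay near 0 in every fit and was never called: median-of-ratios scaling gave -0.03, no filter -0.05 and DESeq2 -0.01, and single libraries left out -0.36 to 0.36. Of the 9, 6 concern the mRNA stability change of Accsl, called with no filter (-3.86), DESeq2 (-4.67), the replicate block (-3.74), the culture replicate block (-3.72), without ESC total replicate 3 and without both ESC replicate 3 libraries (-3.79). Its remaining alternatives, 14 of 20, left it uncalled. With single libraries left out it ranged from -3.99 to -3.57. The other 3 concern Accsl in ESCs, whose relative stability crossed the fold threshold with no expression filter (1.11, where the median gene was at 0.25 against 0.03) and ranged from 0.70 to 1.08 with single libraries left out; relative to the median gene it was 0.86 with no filter and 0.83 with all settings as reported. Using library totals alone moved that median to -0.20 and gave 0.64 for Accsl, -0.46 for Lrrc31, 0.15 for Mymx and -0.95 for Jam2. Over all alternatives (limma-voom, edgeR or DESeq2), Lrrc31 had an adjusted p of 0.000636 to 0.999 and Mymx of 0.00065 to 0.561. Neither is therefore placed firmly to one side of 0, whereas Jam2 stayed at or under 0.000174. Relative to the median gene of each setting, Lrrc31 was at -0.34 to -0.21 and Mymx at 0.13 to 0.61, a difference that was not tested. The replicate block gave 0.88, 0.40, -0.23 and -0.72 for Accsl, Mymx, Lrrc31 and Jam2 in ESC relative stability, and the culture replicate block 0.87 for Accsl; beyond the mRNA stability change of Accsl, the blocks changed no call of the 4 genes. With single libraries left out, the limits for groups with 0 reads ranged from 0.229 to 0.385% (Accsl, total), 0.283 to 0.449% (Lrrc31, total) and 0.401 to 0.715% (Mymx, nascent). The high ends follow from fewer EpiLC reads, and the low ends came without ESC replicate 3 of the same assay. Lrrc31 had no nascent value without EpiLC 4sU replicate 2, its only read. Fitted changes against 0 reads depended on the tool: for Accsl mRNA, edgeR gave -11.48 and DESeq2 -11.14. Neighbours lower in mRNA numbered 5 to 7. Few EpiLC reads limit every residual level, those of 4sU libraries most.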
